A study of Mus musculus with 4 samples.

Results

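The genes described here are the mitotic cyclins and the control enzymes of their kinase CDK1 in cultured spermatogonial stem cells of the mouse, which renew themselves and sustain sperm production. The members are 10 symbols named by their role, namely Ccna1, Ccna2, Ccnb1, Ccnb2, Cdk1, Cdc25b, Cdc25c, Wee1, Pkmyt1 and Foxm1. All 10 were found among the 22552 gene symbols of the FPKM tables, each on a single line. The cells derived from testes of DBA/C57 F1 males aged 5 to 7 days and were single-cell clones, iKO-SC-1 and iKO-SC-2, carrying an inducible knockout of the microRNA miR-202. After a night on laminin the clones were kept for 2 days either with doxycycline at 10 µg/ml, the inducer, or without it, giving 2 libraries per condition. Titles give a replicate number but no clone, and equal numbers are read here as 1 clone. The genotype label of all 4 libraries reads wild type, and the untreated libraries carry the same inducible system, so the comparison is of the drug with no drug within engineered clones. A doxycycline-treated group without the knockout construct was not analysed here, so the drug itself and the loss of miR-202 cannot be told apart. The series title names cell cycle regulators among what miR-202 restrains, and that is the question these genes bear on.

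As background, CDK1 is the kinase that drives cells from G2 into mitosis, and it acts only when bound to a cyclin. Cyclin A2 partners CDK1 and CDK2 through S phase and G2, cyclins B1 and B2 bring CDK1 to its peak in mitosis, and cyclin A1 is known mainly from male meiosis. WEE1, in the nucleus, and PKMYT1, on endoplasmic reticulum and Golgi membranes, hold CDK1 inactive by inhibitory phosphorylation, and the phosphatases CDC25B and CDC25C remove those phosphates. FOXM1 is a transcription factor that, with B-MYB and the MuvB complex, activates the genes of G2 and mitosis, including several of those above.

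The knockout targets the microRNA whose mature arms are shown here with the seed, bases 2 to 8, in capitals (RefSeq, GRCm38.p6, minus strand of chromosome 7). The 5p arm lies at chr7:139957732-139957752 and the 3p arm at chr7:139957695-139957716.

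mmu-miR-202-5p: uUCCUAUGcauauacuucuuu

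mmu-miR-202-3p: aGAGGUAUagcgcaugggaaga

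A match to either seed, of 7 bases, occurred in the longest annotated 3′ UTR of 2 of the 10 members, against 25.6% of the 10520 tested genes with a 3′ UTR in GENCODE M21. The Ccnb1 site matches bases 2 to 8 of the 5p arm and begins at base 54 of a 3′ UTR of 1028 bases. The Cdk1 site matches bases 2 to 7 of the 3p arm followed by A and begins just after base 964 of 3352. Each is printed with its flanks and the match in capitals (GRCm38, minus strand, chr13:100779608-100779633 for Ccnb1 and chr10:69337518-69337543 for Cdk1).

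Ccnb1, 5p site: ccgcctgtaCATAGGAtacctaccgt

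Cdk1, 3p site: agtttaccagTACCTCAgcctcagcc

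Such a match is a description of the letters and shows neither binding nor repression. The 3′ UTRs of the other 8 members held neither heptamer.

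Many G2 and mitosis genes are known to carry CCAAT boxes, bound by NF-Y, and a cell cycle homology region, bound by MuvB, close to their transcription start. The promoters of 5 members were matched in RefSeq (GRCm38.p6), those of Ccna1, Ccnb1, Ccnb2, Cdk1 and Cdc25b. Ccna2, Cdc25c, Wee1, Pkmyt1 and Foxm1 were not matched. Shown are the 4 of genes that rose with doxycycline in either fit described below, from 250 bases before the start to 50 after. Capitals mark the CCAAT box, the homology region TTTGAA and a variant form of it, TTCGAA, each searched on both strands, and none of these overlap. Other forms of the homology region were not searched. The windows are chr13:100786437-100786736 (minus) for Ccnb1, chr9:70421505-70421804 (minus) for Ccnb2, chr10:69352863-69353162 (minus) for Cdk1 and chr2:131186698-131186997 (plus) for Cdc25b.

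Ccnb1: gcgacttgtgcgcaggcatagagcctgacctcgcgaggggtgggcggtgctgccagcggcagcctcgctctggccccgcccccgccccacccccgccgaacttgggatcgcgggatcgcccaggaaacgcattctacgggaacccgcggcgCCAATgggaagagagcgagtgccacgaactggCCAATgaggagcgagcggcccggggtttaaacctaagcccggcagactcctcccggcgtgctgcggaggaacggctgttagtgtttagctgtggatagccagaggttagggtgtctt

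Ccnb2: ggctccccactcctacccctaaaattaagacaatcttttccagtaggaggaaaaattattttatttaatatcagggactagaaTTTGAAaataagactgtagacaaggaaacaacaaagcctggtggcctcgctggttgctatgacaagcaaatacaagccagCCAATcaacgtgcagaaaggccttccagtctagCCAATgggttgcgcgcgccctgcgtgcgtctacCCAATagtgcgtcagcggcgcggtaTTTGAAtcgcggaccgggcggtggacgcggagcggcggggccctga

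Cdk1: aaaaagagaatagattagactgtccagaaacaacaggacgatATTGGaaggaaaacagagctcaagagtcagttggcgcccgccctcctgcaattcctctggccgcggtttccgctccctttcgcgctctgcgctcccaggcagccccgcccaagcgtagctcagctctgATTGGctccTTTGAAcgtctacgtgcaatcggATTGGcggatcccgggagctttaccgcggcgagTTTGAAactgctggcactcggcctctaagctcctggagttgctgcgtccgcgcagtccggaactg

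Cdc25b: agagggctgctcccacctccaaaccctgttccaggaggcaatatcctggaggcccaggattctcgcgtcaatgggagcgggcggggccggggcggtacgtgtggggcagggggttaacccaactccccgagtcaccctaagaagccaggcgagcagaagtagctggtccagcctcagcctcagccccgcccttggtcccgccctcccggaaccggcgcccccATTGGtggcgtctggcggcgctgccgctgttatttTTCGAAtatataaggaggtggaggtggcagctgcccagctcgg

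Ccnb2 and Cdk1 each held 3 CCAAT boxes and 2 copies of TTTGAA. In Ccnb2 one copy of TTTGAA began 4 bases after the start, and in Cdk1 one began 15 bases before it. Ccnb1 held 2 CCAAT boxes, 99 and 67 bases before the start, and neither TTTGAA nor TTCGAA within this window. Cdc25b held 1 CCAAT box and 1 copy of TTCGAA. Ccna1 held a single CCAAT box. Over 27025 promoters of the same length, 37.9% held a CCAAT box. TTTGAA was in 18.1% of them, the variant in 1.57%, and 3 or more CCAAT boxes in 3.56%.

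The FPKM of a library summed to between 309153 and 320243. From the spacing of low FPKM values, relative depth was 1.0 and 1.22 with doxycycline and 1.33 and 1.55 without, in units of doxycycline replicate 1, so the drug-treated library was the shallower of each pair. Mir202 was listed at 0 in all 4 libraries, which checks neither the knockout nor the labels. Of the stem cell markers, all 18 passed the expression filter and their summed FPKM was 1592 and 1485 with doxycycline and 1605 and 1511 without, Uchl1 being the most abundant. Of 12 feeder fibroblast markers 11 passed, with sums of 260.1 and 248.1 against 257.0 and 226.5 and Fn1 the most abundant. Sertoli, Leydig and peritubular, and macrophage and blood markers summed to between 5.70 and 14.3 FPKM in any library, led by Sox9, Acta2 and Cd68. Of these lists 3 of 10, 1 of 8 and 2 of 9 measured markers passed, and Fshr, Cyp17a1, Hsd3b1 and Hbb-b1 were listed at 0 throughout. No marker passed in limma's test over all genes. With the block 1 did, the stem cell gene Nanos3, which fell and stood at 23.9 and 24.5 FPKM against 27.4 and 32.8. The part of other cells in the results was not tested, and in bulk RNA more cells in G2 and mitosis cannot be told apart from more RNA per such cell.

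Without doxycycline, Ccna2 (38.2 ± 0.165 FPKM, SD, n = 2) and Ccnb2 (34.8 ± 1.15) were the most abundant. Foxm1 (28.1 ± 0.188) and Wee1 (27.3 ± 0.610) followed, then Cdc25b (19.8 and 20.2), Ccnb1 (17.7 ± 0.153) and Cdk1 (14.7 ± 0.376). Cdc25c (8.54 ± 0.815), Pkmyt1 (4.88 ± 0.242) and Ccna1 (0.488 ± 0.0523) closed the order. No 2 neighbours in that order overlapped between untreated libraries, although Foxm1 and Wee1 differed by little more than the SD of Wee1. With doxycycline the order changed at the top. Ccnb2 (50.8 ± 3.001) stood above Ccna2 (48.2 ± 1.46), with overlapping libraries. Foxm1 and Wee1 overlapped as well, and so did Cdc25b and Ccnb1. FPKM is scaled by transcript length, so these levels can be set side by side, within the limits of the authors' transcript models.

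**Figure D1:**
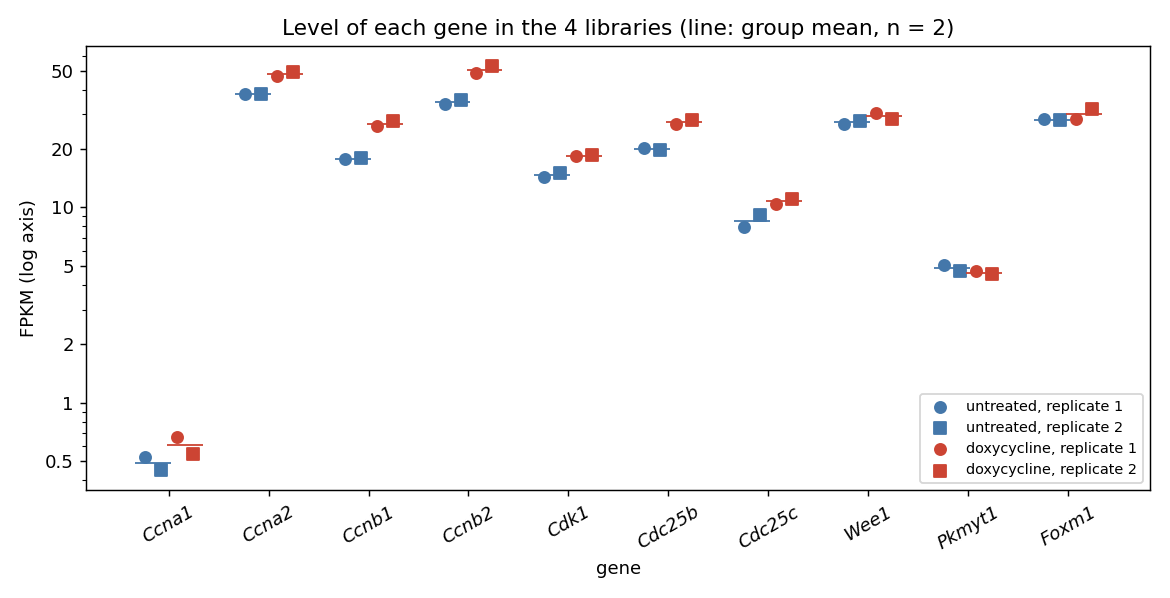
FPKM of the 10 genes on a log axis in each of the 4 libraries, untreated in blue and doxycycline in red, circles for replicate 1 and squares for replicate 2, with a line at each group mean (n = 2). The red points of Ccna2, Ccnb1, Ccnb2, Cdk1, Cdc25b and Cdc25c lie clear above the blue ones, those of Wee1, Foxm1 and Pkmyt1 lie close to them, and Ccna1 stays under 1 FPKM throughout.

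With doxycycline Ccna2, Ccnb1, Ccnb2, Cdk1 and both CDC25 phosphatase genes were at higher levels in both libraries. Wee1 and Foxm1 were higher in both as well but by less, and Pkmyt1 was slightly lower. Ccnb1, Ccnb2 and Cdc25b rose, by 1.52-fold, 1.46-fold and 1.37-fold. They were the members past an adjusted p of 0.05 in limma's test, which ran over the 11924 genes whose mean FPKM was 1 or more. That is 3 of the 9 members tested, where 0.218% of all tested genes rose and 0.277% changed in either direction. Ccna1 fell below the expression filter and was not tested. With the replicate number as a block, which compares libraries of equal number, Ccna2, Cdk1 and Cdc25c rose as well. That made 6 of 9 members against 2.73% of all tested genes. The titles do not say that equal numbers are 1 clone. No member fell in either fit. Both doxycycline libraries stood above both untreated ones in 9 of the 10 members and below them in 1, Pkmyt1, against 23.5% and 24.9% of all tested genes. The median log2 change of the 9 tested members, on the log2(FPKM + 1) scale, was 0.31, against -0.0022 over all genes. Members were chosen with earlier results of these libraries known, so these counts are no independent evidence of direction.

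**Figure D2:**
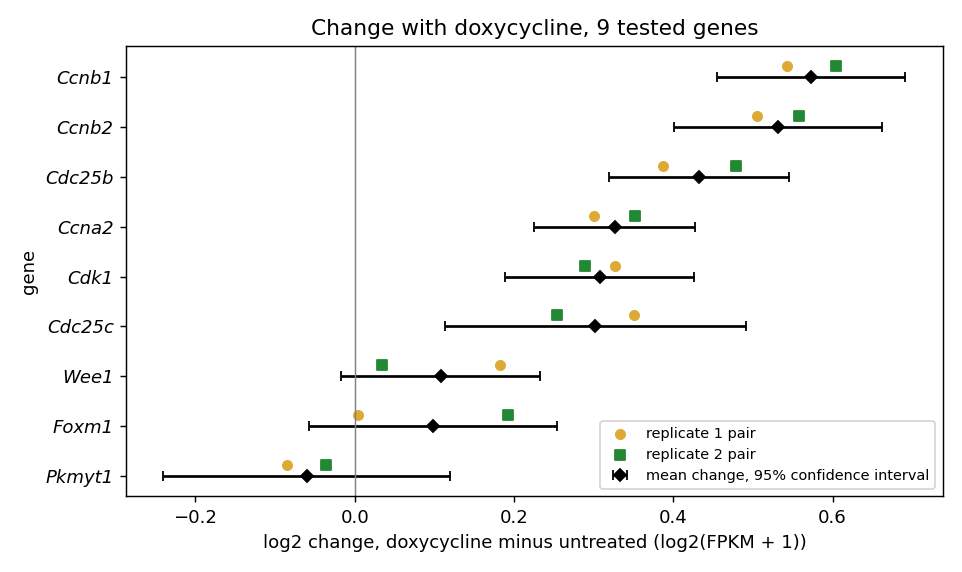
Log2 change with doxycycline on the log2(FPKM + 1) scale for the 9 tested genes, as the mean with limma's 95% confidence interval (black) and as the change within each same-numbered pair (yellow circles, replicate 1, and green squares, replicate 2). The intervals of Ccnb1, Ccnb2, Cdc25b, Ccna2, Cdk1 and Cdc25c lie above 0 and those of Wee1, Foxm1 and Pkmyt1 span it.

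The 3 calls did not hold in every alternative setting, and why they were lost was not tested. Leaving out doxycycline replicate 2, untreated replicate 1 or untreated replicate 2 left no member past the threshold, and leaving out doxycycline replicate 1 kept all 3. They were also lost with no expression filter and when the variance was moderated without its trend on expression. Over the 14 alternatives the log2 change of Ccnb1 ran from 0.49 to 0.61, that of Ccnb2 from 0.47 to 0.59 and that of Cdc25b from 0.37 to 0.46, and their highest limma adjusted p were 0.229, 0.239 and 0.239.

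Cyclin B1 is the cyclin that carries CDK1 into the nucleus as cells enter mitosis. Ccnb1 (chromosome 13, 101548693 to 101556441, mm9) reached 26.1 and 27.6 FPKM in the treated libraries, where the untreated ones had 17.6 and 17.8. Both treated libraries were well above both untreated ones, and the gap of 8.29 FPKM between the nearest of them exceeded the range within either group, at most 1.51 FPKM. The log2 change was 0.57 ± 0.05 (SE), with a limma adjusted p of 0.0291 and 0.00149 with the block. Within the same-numbered pairs the level was 1.48-fold and 1.55-fold that of the untreated partner. By p-value it ranked as number 6 of all tested genes. The tables give for doxycycline replicate 1 a confidence interval of 24.6 to 27.6 FPKM, which lies above both untreated values. Mouse Ccnb1 has near-identical copies elsewhere in the genome. In GENCODE M21, 5 pseudogenes aligned to its transcript over at least 200 bases at 94.4% to 99.2% identity, among them Ccnb1-ps and Gm12856, and how the authors' software shared reads with them is not given in the sources used here, so the level of Ccnb1 is uncertain to that extent.

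Cyclin B2, which is known from the Golgi, moved in the same way. Ccnb2 (chromosome 9, 70255495 to 70269361, mm9) reached 48.7 and 53.0 FPKM under doxycycline against 34.03 and 35.7 in untreated cells. The groups did not overlap, and the higher treated value was in replicate 2, as was the higher untreated one. The log2 change was 0.53 ± 0.05 (SE), with a limma adjusted p of 0.0291 and 0.00119 with the block. No other gene of GENCODE M21 aligned to its transcript at 90% identity or more over 200 bases.

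Cyclin A2, the A-type cyclin of dividing cells, was the most abundant member without the drug. Ccna2 (chromosome 3, 36463786 to 36470918, mm9) had 47.1 and 49.2 FPKM in treated cells and 38.1 and 38.3 in untreated ones. The groups were clear of each other, and the change was 1.24-fold in replicate 1 and 1.28-fold in replicate 2. Its log2 change of 0.33 ± 0.04 (SE) missed the threshold (limma adjusted p = 0.0576) and passed with the block (adjusted p = 0.00795). It also passed when genes under a mean of 5 FPKM were left out, with median-ratio scaling and with quantile normalization. In the other 10 of the 14 alternatives Ccna2 missed the threshold. The 3′ end of Ccna2 overlaps that of Exosc9, an exosome subunit gene on the opposite strand, and 431 bases of their transcripts are identical. Without strand, reads there cannot be told apart. Exosc9 itself had 21.3 and 23.6 FPKM against 20.1 and 20.9, a log2 change of 0.12 ± 0.06 (limma adjusted p = 0.404).

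Cyclin A1, the meiotic paralogue, was barely detected. Ccna1 (chromosome 3, 54849390 to 54858977, mm9) read 0.666 and 0.548 FPKM in treated libraries against 0.525 and 0.451. The treated values lay above the untreated ones by as little as 0.0226 FPKM, and the deposited interval of doxycycline replicate 1, from 0.368 to 0.964 FPKM, held all 4 values. With no expression filter its log2 change of 0.11 had a limma adjusted p of 0.562. The A-type cyclin RNA of these cells was thus almost all Ccna2.

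Cdk1, the kinase gene itself (chromosome 10, 68799382 to 68815660, mm9), had 18.3 and 18.5 FPKM under the drug and 14.4 and 14.9 without it. The treated libraries were nearly equal and both lay above the untreated ones. The log2 change was 0.31 ± 0.05 (SE), a fold of 1.25. It missed the threshold (limma adjusted p = 0.0731) and passed with the block (adjusted p = 0.0190).

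Both phosphatase genes that release CDK1 from inhibition were at higher levels with doxycycline. Cdc25b, whose product starts CDK1 activation at the centrosome, lies on chromosome 2 at 131012683 to 131024247 (mm9). It had 26.8 and 27.9 FPKM with the drug and 20.2 and 19.8 without. The 2 groups were separate, and the change was 1.32-fold in replicate 1 and 1.41-fold in replicate 2. The log2 change was 0.43 ± 0.05 (SE), with a limma adjusted p of 0.0334 and 0.00490 with the block. Cdc25c, which amplifies CDK1 activity in mitosis, lies on chromosome 18 at 34892650 to 34911187 (mm9). It was less abundant, at 10.4 and 11.1 FPKM in treated libraries and 7.97 and 9.12 in untreated ones. The untreated libraries differed by 1.15 FPKM, nearly as much as the gap of 1.32 FPKM to the treated ones. The log2 change of 0.30 ± 0.08 (SE) missed the threshold (limma adjusted p = 0.197) and passed with the block (adjusted p = 0.0399). In GENCODE M21 the Cdc25c gene overlaps Gm3550 by 1656 bases on the opposite strand, and Gm3550 had no FPKM value here.

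Neither gene for a kinase that inhibits CDK1 passed the test. Wee1 (chromosome 7, 117265572 to 117286813, mm9) read 30.6 and 28.4 FPKM under the drug and 26.9 and 27.8 without it. The groups stood apart by only 0.688 FPKM, less than the range within either, and the pairs differed, at 1.14-fold in replicate 1 and 1.02-fold in replicate 2. Its log2 change was 0.11 with a 95% confidence interval from -0.02 to 0.23 (limma adjusted p = 0.386, and 0.251 with the block). Pkmyt1 (chromosome 17, 23863302 to 23873696, mm9) read 4.70 and 4.57 FPKM under the drug and 5.05 and 4.70 without it. Treated replicate 1 and untreated replicate 2 were all but equal. The log2 change was -0.06, with an interval from -0.24 to 0.12 (limma adjusted p = 0.737, and 0.651 with the block). Pkmyt1 overlaps Paqr4 on the opposite strand, which was under 1 FPKM in every library.

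Foxm1, the transcription factor of the group (chromosome 6, 128313011 to 128325904, mm9), read 28.3 and 32.1 FPKM in treated libraries and 28.2 and 27.97 in untreated ones. The groups were 0.0791 FPKM apart. Replicate 1 was level, at 1.00-fold, and replicate 2 was higher, at 1.15-fold. The log2 change was 0.10 with a 95% confidence interval from -0.06 to 0.25 (limma adjusted p = 0.507, and 0.331 with the block). In GENCODE M21 the Foxm1 gene overlaps Tex52 by 691 bases and Gm44596 by 644 bases, both on the same strand. Neither symbol had an FPKM value here, so their part in the Foxm1 level is unknown.

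The balance of RNA between members can be read within each library, where library scaling cancels. Cdc25b stood at 0.874 and 0.982 of the Wee1 level with doxycycline and at 0.753 and 0.712 of it without. For Cdc25c over Wee1 the ratios were 0.341 and 0.389 against 0.296 and 0.329. Both phosphatase transcripts were thus higher relative to Wee1 in each treated library than in either untreated one. Wee1 over Pkmyt1, neither of which passed the test, was separate as well, at 6.52 and 6.23 with doxycycline against 5.33 and 5.90 without. Ccnb1 per Cdk1 was 1.43 and 1.495 with the drug and 1.22 and 1.19 without, and Ccnb2 per Cdk1 was 2.66 and 2.87 against 2.36 and 2.39. The B-type cyclins were therefore higher relative to their kinase gene in both treated libraries. Ccna2 per Cdk1 overlapped between the groups, at 2.57 and 2.66 against 2.64 and 2.57. Ccnb2 exceeded Ccna2 in both treated libraries, at ratios of 1.03 and 1.08, and was below it in both untreated ones, at 0.893 and 0.930. With 2 libraries a group the smallest two-sided p of an exact permutation test is 0.333, which all of these ratios but Ccna2 per Cdk1 had (0.667), so none could pass and the differences between members were not otherwise tested.

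**Figure D3:**
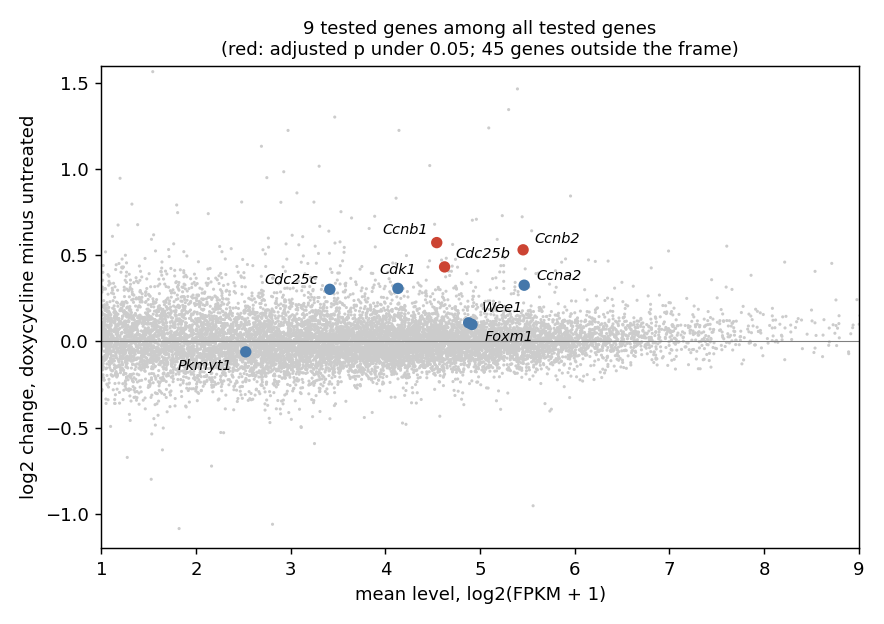
Log2 change with doxycycline against mean level, both on the log2(FPKM + 1) scale, for all 11924 tested genes (grey) with the 9 tested members marked, red where limma's adjusted p was under 0.05. Ccnb1 at 0.57 and Ccnb2 at 0.53 lie above the 99th percentile of all genes (0.43), and Wee1, Foxm1 and Pkmyt1 lie within the grey band around 0. The axes leave 45 genes outside the frame.

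Among all tested genes the 90th percentile of the log2 change was 0.16 and the 99th was 0.43. Ccnb1 and Ccnb2 exceeded the latter, Cdc25b at 0.4325 fell just short of it at 0.4344, and Ccna2, Cdk1 and Cdc25c lay between both. The 3 tested genes outside the group whose log2 levels over the 4 libraries, centred on their mean, lay closest to those of Ccnb1 were Slc19a2, Slc38a3 and Gpx3. Their Euclidean distances were 0.0158, 0.0644 and 0.0676. Slc19a2, a thiamine transporter gene, had 12.3 and 13.2 FPKM against 8.14 and 8.27 untreated (log2 change 0.58 ± 0.06, limma adjusted p = 0.0334). Slc38a3, an amino acid transporter gene, and Gpx3, a secreted glutathione peroxidase gene, had log2 changes of 0.52 and 0.55, with limma adjusted p of 0.0724 and 0.0547, and both passed with the block (0.0139 and 0.00476). Over 4 libraries in 2 groups such likeness describes the size of the change and little else.

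In the wider circuit around CDK1 most of the listed genes called with the block were FOXM1 or MuvB targets, which form the longest list. Of 44 genes known as FOXM1 or MuvB targets, the members left out, 3 rose, 30 rose with the block and none fell. Among all tested genes 0.218% rose, and 2.73% rose with the block. In all 44 both treated libraries lay above both untreated ones, against 23.5% of tested genes, and their median log2 change was 0.28, with a range from 0.12 to 0.84. Gtse1, a microtubule-associated protein of G2 that restrains p53, was at 71.6 and 86.1 FPKM against 44.0 and 42.6, a log2 change of 0.84 ± 0.08 (SE). The polo kinase gene Plk1 was at 42.1 and 43.4 against 31.8 and 30.8, and the kinetochore gene Cenpf at 41.7 and 42.0 against 31.4 and 29.9. All 3 had a limma adjusted p of 0.0291. The smallest change of the list was that of the proliferation marker Mki67, at 0.12 (adjusted p = 0.269). Of the 37 promoters of this list matched in RefSeq, 73.0% held TTTGAA and 75.7% CCAAT. The list was drawn up with earlier results of these libraries known, and G2 and mitosis genes were known to be higher, so its count is no independent evidence of direction.

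Of 12 genes that act on mitotic entry and cyclin destruction, Plk1 rose and none fell, where 0.218% of all tested genes rose. With the block 6 rose and none fell, where 2.73% of all tested genes rose, and the list's median log2 change was 0.24. The lists overlap, and 5 of these 6, Plk1, Aurka, Aurkb, Cdc20 and Ube2c, are already counted among the 30 FOXM1 or MuvB targets. Aurka, the kinase that activates PLK1, was at 41.0 and 46.4 FPKM against 30.2 and 31.7 and Ube2c, the ubiquitin-conjugating enzyme with which the anaphase-promoting complex destroys the cyclins, at 80.8 and 89.9 against 63.0 and 60.0. Their log2 changes of 0.48 and 0.46 missed the threshold (limma adjusted p = 0.0597 and 0.0577) and passed with the block (0.00277 and 0.00732). Cdc20, the mitotic activator of that complex, was at 0.43 (adjusted p = 0.0636, and 0.0121 with the block), while Fzr1, its G1 activator, was at 0.03 (0.835). No line was matched for Bora under that symbol.

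Of 9 tested genes for partners of CDK1 and for the kinase that activates it, none passed in limma's test. With the block 1, Cks2, rose, where 2.73% of all tested genes did, and it is also among the 30 FOXM1 or MuvB targets. An unadjusted p under 0.05 was found for 2 of the 9, 1 of them higher, where 15.1% of all tested genes had one and 8.46% had one and were higher. Cks2, a small subunit that binds CDK1, was at 33.8 and 33.7 FPKM against 29.7 and 28.3, and its log2 change was 0.21 ± 0.04 (SE, limma adjusted p = 0.139, and 0.0416 with the block). Cyclin E2 (Ccne2) was at -0.23 (adjusted p = 0.329) and the phosphatase gene Cdc25a, which acts at G1/S as well as G2, at -0.03 (0.897). The CDK-activating kinase genes Cdk7, Ccnh and Mnat1 were at 0.10, 0.06 and 0.14. Ccnb3, a meiotic cyclin gene, stayed under 1 FPKM in all 4 libraries and was not tested.

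None of 10 genes of the Greatwall pathway, which holds the phosphatase PP2A-B55 in check during mitosis, passed in limma's test with or without the block. An unadjusted p under 0.05 was found for 3, all higher, where 8.46% of all tested genes had one and were higher. The Greatwall kinase gene Mastl was at 8.38 and 8.76 FPKM against 7.60 and 7.08, a log2 change of 0.20 ± 0.07 (SE, adjusted p = 0.262), and the PP2A regulatory subunit gene Ppp2r2c was at 0.18 (0.266). The list's median was 0.05.

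Of 11 tested genes of MuvB, B-MYB and the DREAM repressor, which share targets with FOXM1, none passed in limma's test with or without the block, and 0 had an unadjusted p under 0.05, against 15.1% of all tested genes. Their median log2 change was 0.0025. The B-MYB gene Mybl2 was at 14.6 and 14.0 FPKM against 14.8 and 13.7, and the MuvB genes Lin9, Lin37, Lin52 and Lin54 had log2 changes between -0.02 and 0.01. Rbl1 and Tfdp1, of the DREAM complex, were at -0.11 and -0.10 (limma adjusted p = 0.578 and 0.384).

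Of 15 genes that feed checkpoint signals into CDC25, WEE1 and the cyclin kinases, none passed in limma's test, and 1 rose and 1 fell with the block, against 2.73% and 0.973% of all tested genes. An unadjusted p under 0.05 was found for 4 of the 15, 1 of them higher. Of all tested genes 15.1% had one, and 8.46% had one and were higher. Their median was 0.005. Cdkn1a, the p21 inhibitor that binds cyclin-CDK complexes, reached 38.2 and 56.0 FPKM against 17.2 and 21.0 untreated. At 1.24 its log2 change was larger than that of any member (limma adjusted p = 0.0636, and 0.000289 with the block). Gadd45g, which inhibits the CDK1 and cyclin B1 complex, was at -0.34 (0.197, and 0.0244 with the block). The kinase genes that restrain CDC25, Chek1 and Chek2, were at -0.03 and 0.13 (0.858 and 0.416).

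Of 40 G1/S and replication genes none passed in limma's test, and 1, cyclin D1 (Ccnd1), rose with the block, where 2.73% of all tested genes did. An unadjusted p under 0.05 was found for 10 of the 40, 3 of them higher. Of all tested genes 15.1% had one, and 8.46% had one and were higher. Both treated libraries were above both untreated ones in 22.5% of the 40 and below them in 32.5%, against 23.5% and 24.9% of all tested genes, and their median log2 change was -0.02. Ccnd1 was at 0.22 (adjusted p = 0.105, and 0.0334 with the block).

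**Figure D4:**
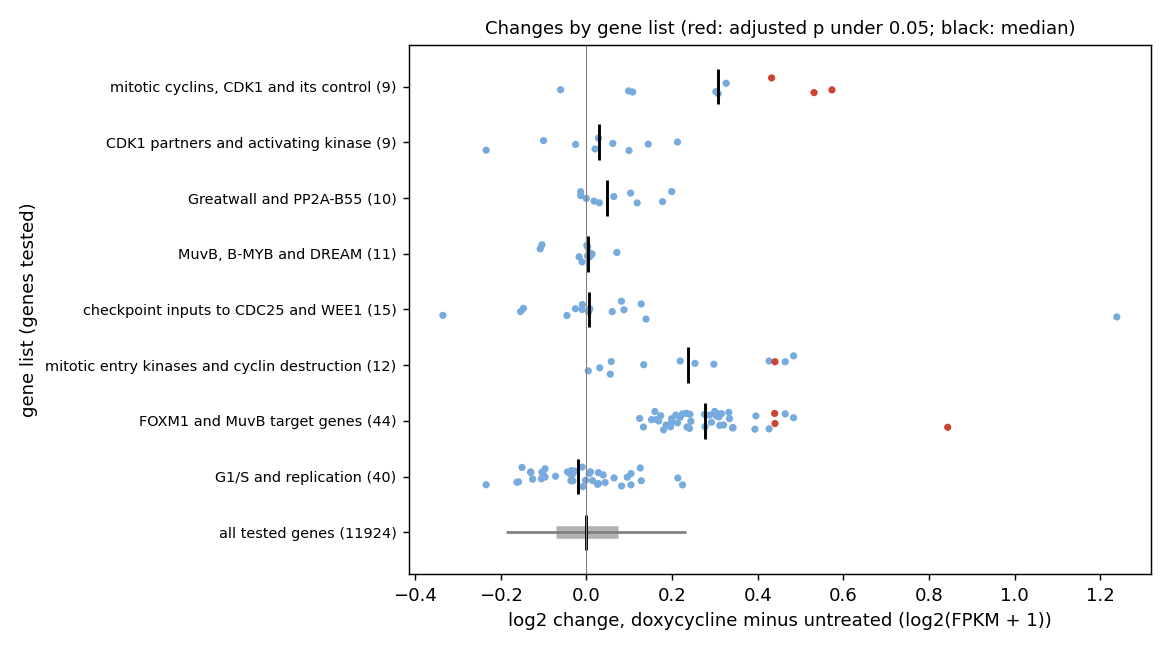
Log2 change with doxycycline on the log2(FPKM + 1) scale for the tested genes of each list, 1 point per gene, red where limma's adjusted p was under 0.05, with the list's median in black. For all tested genes the thick bar is the interquartile range and the thin line spans the 5th to 95th percentiles. The points of the FOXM1 and MuvB targets all lie to the right of 0 while those of the regulators named above them, MuvB, B-MYB and DREAM, cluster at 0.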

How the data were processed

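Per the labels' protocols, TRIzol-extracted total RNA was sequenced on a HiSeq4000. Libraries were grouped by the treatment in their titles. The values are FPKM as deposited by the authors, 1 table per library, per the file headers. The submitters' processing notes list TopHat2 2.0.6, Cufflinks 2.0.2, Cuffdiff and mm9. Annotation and strand setting were not given in the sources used here. Tables were joined by symbol, and FPKM was summed over the lines of a symbol. Depth in reads is unknown.

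Symbols with a mean of at least 1 FPKM entered limma 3.58.1 (R 4.3.3), fitted to log2(FPKM + 1). The variance had an expression trend, and two-sided p-values were adjusted by Benjamini-Hochberg over all 11924 at a threshold of 0.05. The change of low genes is understated on that scale. Folds are ratios of mean FPKM. Because the series' design puts both clones in each condition, libraries of one number were treated as a pair for the block. Their deviations from the group means had a correlation of 0.215 across genes. Library correlations ran from 0.990 to 0.996. P-values reflect only how these 4 libraries vary, which may be technical. Residual degrees of freedom were 2, and 1 with the block, to which moderation added 4.23 and 6.21.

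Members and gene lists were chosen with earlier results of these data known. Named genes are the members, up to 4 genes of each list past the threshold and in any case its 2 largest changes, each marker list's most abundant gene and the 3 genes closest to Ccnb1. Other genes of the lists, and Exosc9, Nanos3 and Paqr4, were named after their values were seen. Loci are mm9 from the authors' table, and no coordinate was carried between builds. Sequences from RefSeq GRCm38.p6 and GENCODE M21 were matched by name, and near-identical copies were found among GENCODE M21 transcripts with BLAST 2.17.0. Other steps ran in Python 3.11.15.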

Additional observations from a re-analysis of the deposited data

How the results depend on the processing

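Of 14 alternatives, none turned the direction of a member. Without a filter 1 gene changed among all genes and 0 members, without the variance trend 2 genes and 0 members, and with a minimum of 5 FPKM 88 genes, against 33 genes and 3 members in the reported fit. The replicate block gave 441 genes, 325 higher and 116 lower, and 6 members, with all 3 called members among them. Leaving out 1 library gave 2 to 60 genes and 0 to 3 members, the lone library of a group being assumed to vary like the other group. The cause of the lost calls was not tested. Foxm1 ranged from 0.01 to 0.19, Wee1 from 0.06 to 0.16 and Pkmyt1 from -0.10 to -0.02 in log2 change over the alternatives in which they were fitted, with lowest limma adjusted p of 0.232, 0.251 and 0.651. Pkmyt1 was left out under the minimum of 5 FPKM, and Ccna1 could be fitted only with no filter. The block changed no other member's call than those of Ccna2, Cdk1 and Cdc25c. Depth in reads is unknown, and the deposited intervals of doxycycline replicate 1 were narrowest for Ccna2, at 3.81% of the value either way, and widest for Ccna1, at 44.7%.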
